A study of Mus musculus with 21 samples.

Results

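Isoproterenol, an agonist that switches on β-adrenergic receptors, was compared with metoprolol, an antagonist with preference for the β1 type of receptor, in the regrowing neonatal mouse heart. The comparison takes 6 of the 21 RNA-sequencing libraries of the study, 3 for each drug, chosen by their treatment label alone. All 21 came from the heart apex of ICR mice, an outbred strain, at postnatal day 7, and all animals, controls included, had their heart apex resected, having been operated on when 1 day old. The drugs were given under the skin on 7 consecutive days. The control group, shown beside the drugs here, is labelled with the resection and no drug, and whether it was injected is not stated. Propranolol, a β-blocker without preference for the β1 type, is used as the most similar other treatment. The doses, the time between the last injection and sampling, and the time of day of sampling are not given in the sources used here. The labels do not say that the libraries of a group are separate animals, so p-values measure the spread between libraries, which may be partly technical.

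The β1 receptor is the main adrenergic receptor of heart muscle. When noradrenaline or isoproterenol binds it, the stimulatory G protein activates adenylyl cyclase, cyclic AMP rises, and protein kinase A phosphorylates calcium channels, sarcomere proteins and the transcription factor CREB, which switches on a fast set of genes. Metoprolol keeps noradrenaline from the receptor. The heart of a newborn mouse can regrow a resected apex in a short window after birth in which its muscle cells still divide.

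Of 18762 genes in the deposited table, 11986 had an FPKM (mapped fragments scaled by transcript length and by the library's mapped total) of at least 1 in at least 3 of the 6 libraries and were tested. At an adjusted p below 0.05, 1017 of them, 8.48%, differed between the drugs. With isoproterenol 366 genes (3.05%) were higher and 651 (5.43%) were lower than with metoprolol. That split depended on scaling: after median-of-ratios rescaling it was 483 higher and 535 lower, and after a correction for transcript length and GC content, chosen after seeing the data, 447 higher and 457 lower. Most differences were small. On the log2(FPKM + 1) scale, which understates changes of low genes, 794 of the called genes differed by less than 0.5, and 5 were higher and 22 lower by at least 1. The median difference of all genes was -0.02, with quartiles of -0.12 and 0.08 and a median standard error of 0.08.

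Of the 22 genes lower with isoproterenol by at least 1 log2 unit, 7 were targets of CREB or other immediate early genes, namely Nr4a1, Nr4a3, Irs2, Sik1, Fos, Atf3 and Fosl2. The others included the kinase inhibitor gene Cdkn1a, the natriuretic peptide gene Nppb, the matrix gene Thbs1, the clock gene Arntl and the mitotic gene Spc25. The 5 genes higher by as much were the clock output gene Dbp, the skeletal actin gene Acta1, the PI3-kinase inhibitor gene Pik3ip1, the stress gene Gadd45a and the sodium-proton exchanger gene Slc9a3.

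**Figure D1:**
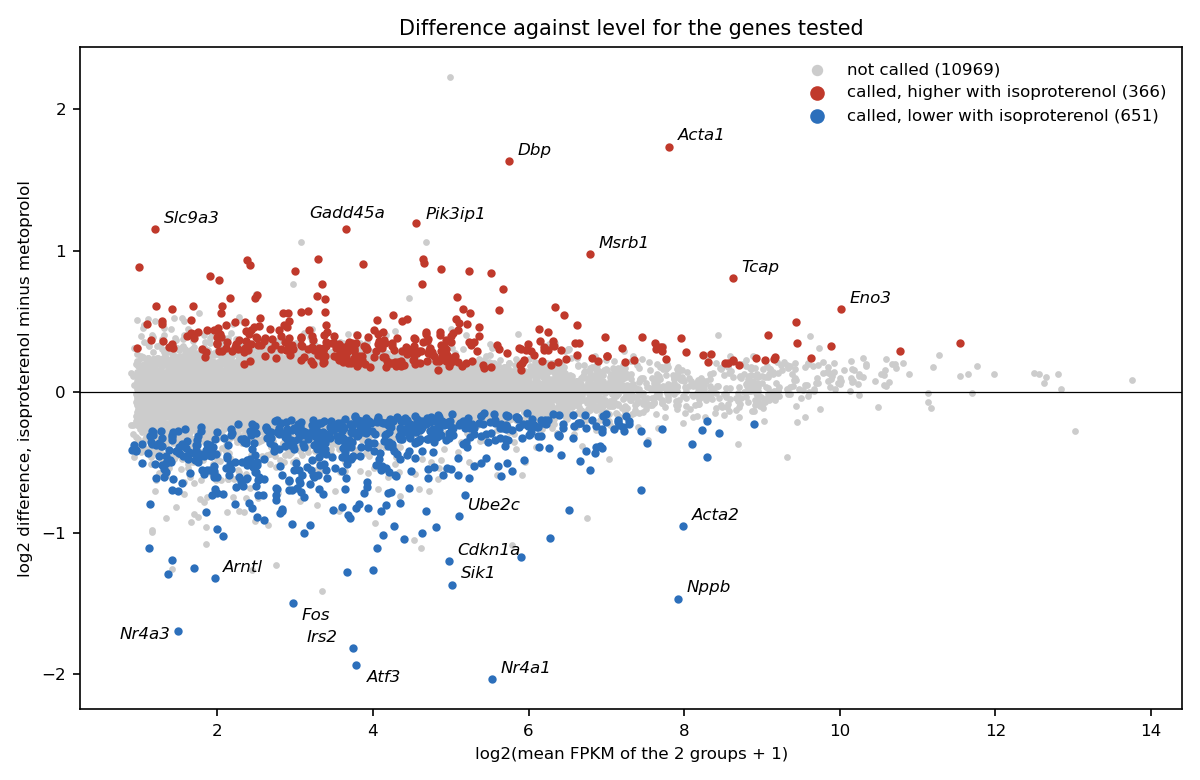
Log2 difference, isoproterenol minus metoprolol (vertical axis), against the log2 of the mean FPKM of both groups plus 1 (horizontal axis) for 11986 genes; 366 red points were called higher and 651 blue points called lower. The lowest points are Nr4a1, Atf3 and Irs2, the highest red points Acta1 and Dbp, and the topmost grey point is the atrial gene Myl7, which was high in 1 isoproterenol library.

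The 6 libraries were alike in total. Summed FPKM ran from 499540 to 524232, between 16348 and 16488 genes were above 0, and relative depth, estimated from the steps between the lowest values of 17 genes, ran from 1 to 1.01. Read counts are unknown. Across genes, Pearson correlations of log2 values ran from 0.991 to 0.995 within groups and from 0.984 to 0.993 between them, and the first principal component, with 45.7% of the variance, put the isoproterenol libraries at -16.4 to -7.41 and the metoprolol libraries at 5.80 to 17.3. Library isoproterenol 3 stood apart in atrial genes: Myl7, the atrial myosin light chain, was 176 FPKM there against 1.27 and 2.59 FPKM in the other isoproterenol libraries and 0.58 to 3.26 FPKM with metoprolol. Myl4 was 92.9 FPKM in that library and 10.2 to 12.96 FPKM in the other five, and Sln 21.01 against 0.22 to 0.43 FPKM. None of the 8 tested atrial markers was called, and their summed level was 773 to 1360 FPKM with isoproterenol and 559 to 835 FPKM with metoprolol. Transcripts of Y-linked genes were present in metoprolol 3 and in no isoproterenol library, with Ddx3y at 8.66 FPKM against at most 0.05 FPKM in the other five. Leaving out isoproterenol 3 brought the calls to 437, and leaving out metoprolol 3, which lay farthest out on the other side of the first component, to 425. Leaving out metoprolol 2 gave 630 calls. Of these reduced sets, 421, 415 and 576 genes were among the 1017. With a Y-linked term in the fit 851 genes were called.

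**Figure D2:**
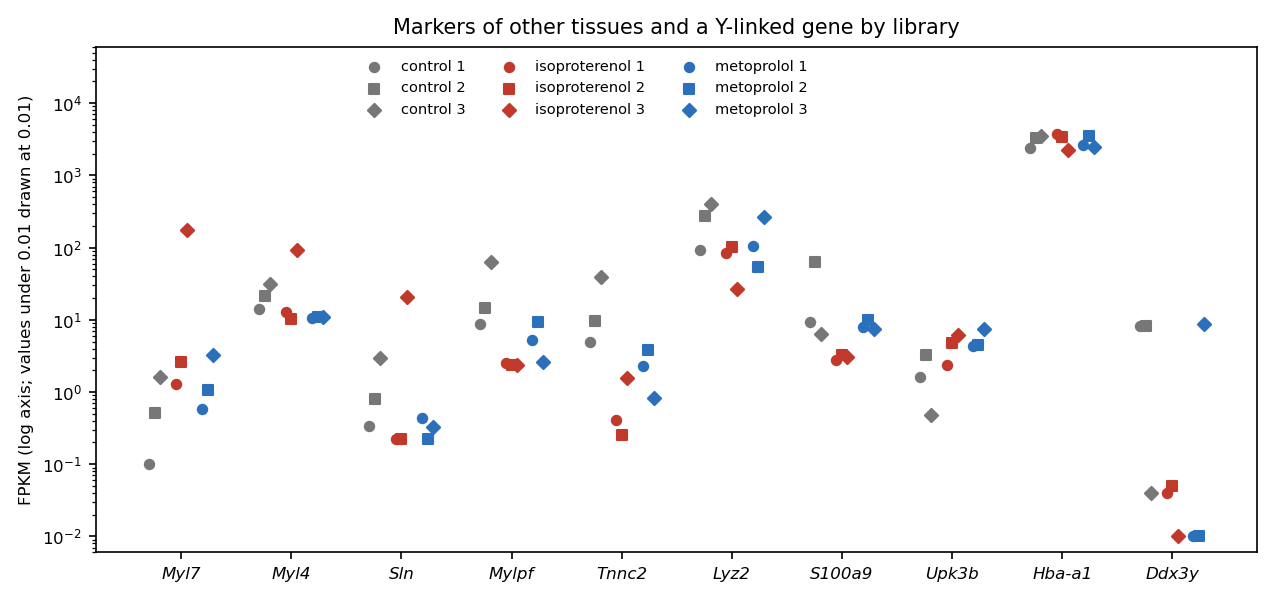
FPKM (log axis) of markers of atrium (Myl7, Myl4, Sln), skeletal muscle (Mylpf, Tnnc2), myeloid cells (Lyz2, S100a9), epicardium (Upk3b), red cells (Hba-a1) and a Y-linked gene (Ddx3y) in each library, with 1 point per library. Isoproterenol 3 stands above the rest for the 3 atrial genes, and Ddx3y is above 1 FPKM in metoprolol 3 and in 2 of the controls.

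The heart identity of the samples was clear from the 14 cardiomyocyte markers, whose summed level was 56298 to 60518 FPKM with isoproterenol and 54367 to 58159 FPKM with metoprolol. The lung gene Sftpc was 0 in all 6 libraries, and the liver gene Alb did not exceed 0.67 FPKM.

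The receptor and the machinery that makes and reads cyclic AMP differed little. Adrb1, the gene of the β1 receptor, was 15.1, 17.2 and 14.6 FPKM with isoproterenol and 15.4, 17.9 and 14.4 FPKM with metoprolol. Its values overlapped, and the difference of -0.02 had a 95% interval of -0.21 to 0.17 on the log2 scale (adjusted p = 0.91). Its mean was 12.8 FPKM in the controls, and against them Adrb1 was higher by 0.27 ± 0.09 with isoproterenol and by 0.29 ± 0.09 with metoprolol (adjusted p = 0.029 and 0.022). Adrb3 was below the level for testing and did not exceed 0.09 FPKM in the 6 libraries.

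Of 26 tested genes from the receptors to protein kinase A, 1 was called (3.85%, against 8.48% of all tested genes). Their differences ran from -0.27 to 0.21, and the list median was 0.01 against -0.02 for all genes. The called gene was Prkar1a, which encodes a regulatory subunit that holds the kinase inactive. It was 203, 179 and 190 FPKM with isoproterenol and 224, 232 and 231 FPKM with metoprolol, so all isoproterenol libraries were below all metoprolol libraries, by 0.26 ± 0.06 (SE) on the log2 scale (adjusted p = 0.012). Its call was lost in 3 alternatives, among them without isoproterenol 2 (adjusted p = 0.055 to 0.089 over the 3). Gnas, which encodes the stimulatory G protein, differed by 0.06 with an interval of -0.05 to 0.17, and Prkaca, the catalytic subunit of the kinase, by 0.10 with an interval of -0.01 to 0.22. Neither was called.

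Many targets of CREB were lower with isoproterenol than with metoprolol, the receptor blocker. Of 17 tested genes on the list of CREB targets, 8 were lower with isoproterenol and 0 were higher. The share called was 47.1%, against 8.48% of all tested genes. A further 9 were not called, and the list median was -0.46. All 3 isoproterenol libraries were below all 3 metoprolol libraries for 12 of the 17, where 17.2% of all tested genes had that order. The other 5, Id1, Cebpb, Ppargc1a, Crtc1 and Crtc2, overlapped, with differences of -0.25 to 0.08. Crtc1 and Crtc2 encode coactivators of CREB, so the list of 17 does not hold targets alone. The number of targets called was 5 without isoproterenol 3 and 5 without metoprolol 2. The mean log2(FPKM + 1) of the 17 genes was 3.32, 3.36 and 3.33 in the isoproterenol libraries, 3.87, 4.31 and 4.11 in the metoprolol libraries, and 3.08 to 3.19 in the controls. The metoprolol group was therefore highest and varied most among its own libraries.

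Nr4a1, an orphan nuclear receptor that cyclic AMP and many other signals induce within minutes, was 14.5, 19.2 and 15.03 FPKM with isoproterenol and 45.9, 114 and 62.8 FPKM with metoprolol. The groups did not overlap, and the difference was -2.03 ± 0.43 (adjusted p = 0.0068). The call was lost without the 4 libraries with transcripts of other tissues, which are isoproterenol 3 and 3 libraries of other groups (-1.99, adjusted p = 0.063), and was kept in the other alternatives. Nr4a1 averaged 7.67 FPKM in the controls and 16.6 FPKM with propranolol. The difference from control was 3.02 ± 0.43 for metoprolol and 0.99 ± 0.43 for isoproterenol (adjusted p = 0.00017 and 0.079), 2 comparisons that share the control libraries. Over all tested genes, 3845 (32.1%) were called between metoprolol and control and 4112 (34.3%) between isoproterenol and control. Its sister gene Nr4a3 was 0.26, 0.27 and 0.35 FPKM with isoproterenol and 1.82, 4.19 and 4.00 FPKM with metoprolol, so it was near the detection floor in 1 group and clearly present in the other. The Nr4a3 difference was -1.69 ± 0.35 (adjusted p = 0.0061).

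Sik1, a salt-inducible kinase that feeds back on CREB coactivators, was 15.3, 17.1 and 18.9 FPKM with isoproterenol and 38.1, 54.0 and 45.4 FPKM with metoprolol. Irs2, the adaptor that couples the insulin receptor to PI3-kinase, was 4.2, 4.3 and 5.94 FPKM against 13.7, 26.1 and 19.9 FPKM. Both genes separated the drugs fully, by -1.36 ± 0.23 for Sik1 and -1.82 ± 0.36 for Irs2 (adjusted p = 0.0014 and 0.0043). In the controls both were lower still, at means of 8.42 FPKM for Sik1 and 1.95 FPKM for Irs2. For Irs2 the difference from control was 2.79 ± 0.36 with metoprolol and 0.97 ± 0.36 with isoproterenol (adjusted p = 7.3e-05 and 0.042).

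Among the other targets, Fos was 2.70, 4.54 and 2.05 FPKM with isoproterenol and 7.01, 14.96 and 10.02 FPKM with metoprolol, a difference of -1.50 ± 0.38 (adjusted p = 0.020). The call of Fos was lost when isoproterenol 1, isoproterenol 3, metoprolol 2 or metoprolol 3 was left out (adjusted p up to 0.13). Dusp1, a phosphatase that ends MAP kinase signals, was lower by 0.39 ± 0.09 with isoproterenol (adjusted p = 0.015), a call lost without isoproterenol 2, isoproterenol 3 or metoprolol 2 (adjusted p up to 0.060). Ppargc1a, the coactivator of mitochondrial genes that cyclic AMP is known to induce in many tissues, was 12.5 to 16.6 FPKM with isoproterenol and 16.5 to 18.5 FPKM with metoprolol. Its groups overlapped and the difference, -0.25 with an interval of -0.58 to 0.08, was not called. Crem and Junb were lower in every isoproterenol library than in any metoprolol library, at differences of -0.28 and -0.46, without passing the threshold (adjusted p = 0.11 and 0.12).

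**Figure D3:**
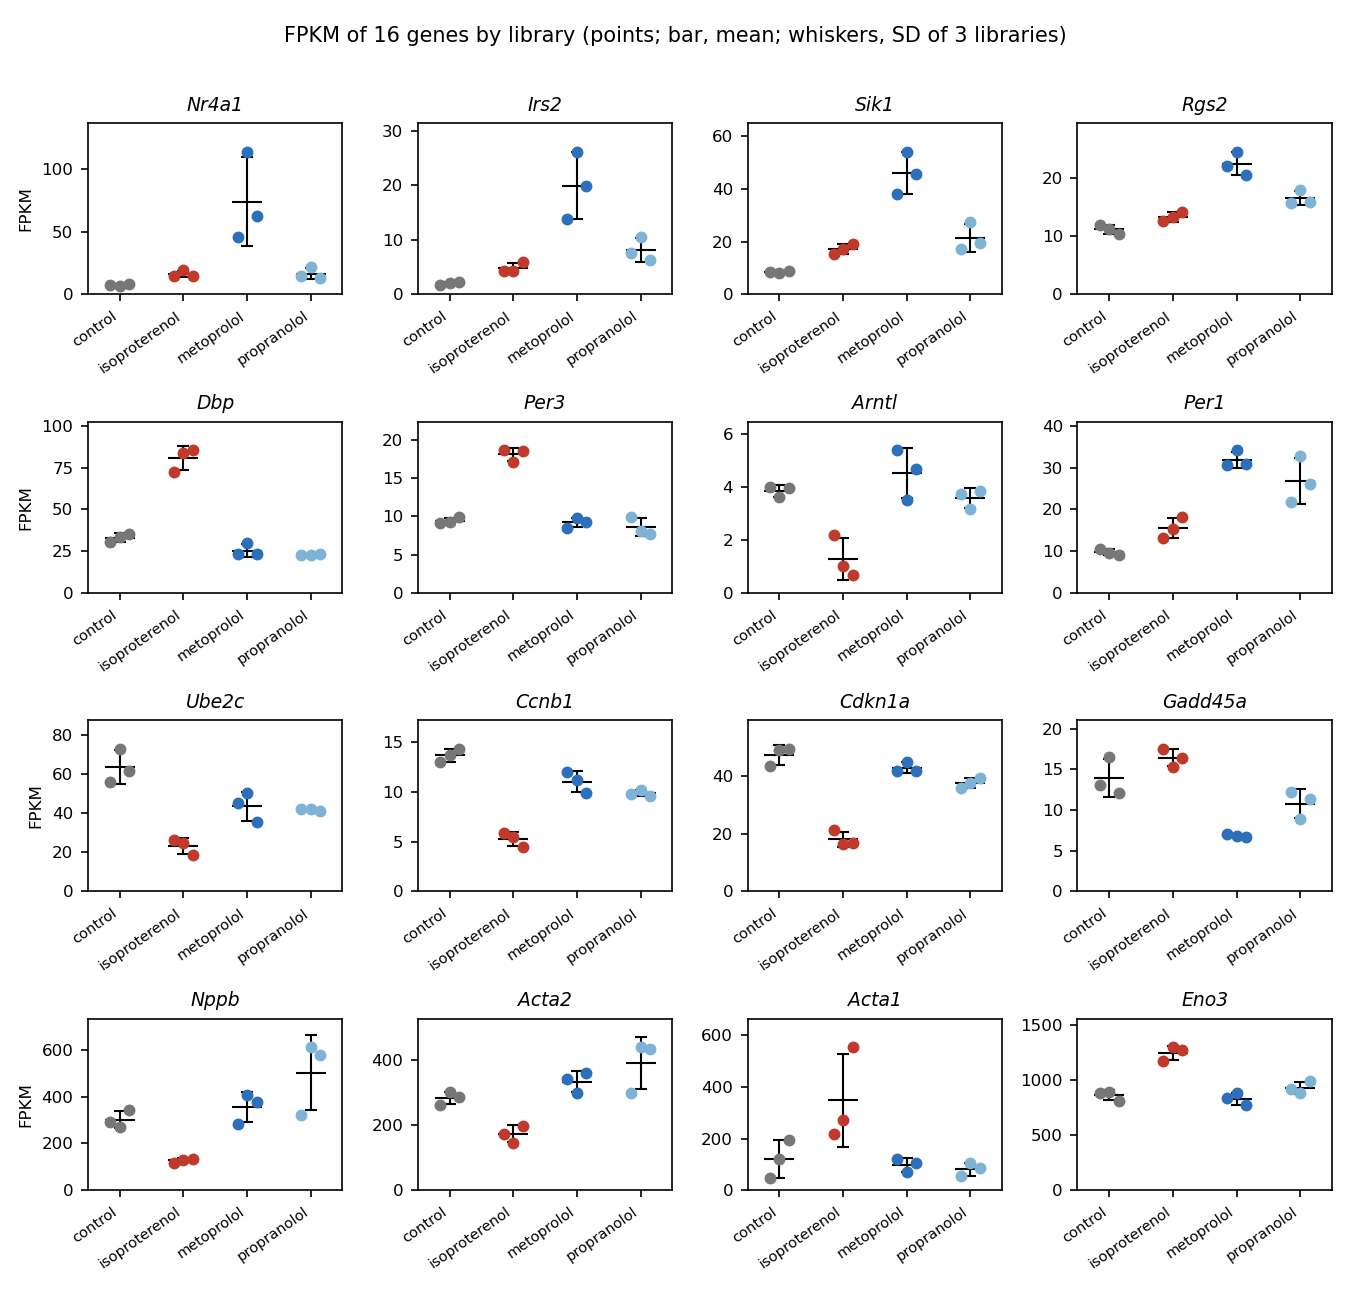
FPKM of 16 genes in the control, isoproterenol, metoprolol and propranolol libraries (1 point per library, black bar the mean, whiskers the SD of 3 libraries, axes from 0). Nr4a1, Irs2 and Sik1 are highest with metoprolol, Dbp and Per3 are highest with isoproterenol, and Arntl, Ube2c, Ccnb1, Cdkn1a, Nppb and Acta2 are lowest with isoproterenol.

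The promoters of 4 CREB targets and of Btg2 are shown as examples that hold the letters that CREB is known to bind, the cyclic AMP response element TGACGTCA or its shorter core TGACG. Sequences are the RefSeq promoter windows of the mouse build GRCm38.p6 (the deposited values were made on mm9), upstream of the start site, with matches on either strand in capitals (CGTCA is the core on the other strand). The core was added to the search after the full motif was listed, and every full motif holds it on both strands. The window of Irs2 held neither form, and Sik1 was not among the genes matched to a window. The stretch of Nr4a1 is chr15:101266601-101266820 (plus strand), of Nr4a3 chr4:48045065-48045174 (plus), of Fos chr12:85473750-85473839 (plus), of Dusp1 chr17:26508598-26508677 (minus) and of the immediate early gene Btg2 chr1:134079291-134079340 (minus, full motif in capitals).
Nr4a1: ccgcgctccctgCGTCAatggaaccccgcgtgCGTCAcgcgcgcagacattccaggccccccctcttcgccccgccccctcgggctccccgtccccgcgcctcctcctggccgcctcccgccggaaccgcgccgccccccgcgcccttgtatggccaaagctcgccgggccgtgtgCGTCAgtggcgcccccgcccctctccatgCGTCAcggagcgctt
Nr4a3: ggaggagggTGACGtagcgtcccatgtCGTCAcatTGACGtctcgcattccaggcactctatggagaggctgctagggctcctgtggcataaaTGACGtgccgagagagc
Fos: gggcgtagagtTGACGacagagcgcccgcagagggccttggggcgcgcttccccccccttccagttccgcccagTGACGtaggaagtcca
Dusp1: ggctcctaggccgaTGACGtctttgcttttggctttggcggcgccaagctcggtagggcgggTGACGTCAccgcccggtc
Btg2: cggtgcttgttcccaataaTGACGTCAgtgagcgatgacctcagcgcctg
Of the 11986 tested genes 9565 had a window of 300 bases around the start. The core was in 35.6% of those windows and in 10 of the 12 windows of the CREB target list (83.3%), and the full motif in 3.46% of all and 1 of the 12. The full motif was in 6.27% of the windows of genes called lower with isoproterenol and in 1.99% of those called higher. These matches are descriptions of sequence and not bound sites.

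Immediate early genes, which stress, growth factors and stretch induce without new protein synthesis, leaned the same way. Of 23 tested, 13 were lower with isoproterenol and 0 higher (56.5% called, against 8.48% of all tested genes). In 17 of the 23 all isoproterenol libraries were below all metoprolol libraries, where 17.2% of all tested genes had that order. The median was -0.42, and Fos, Dusp1 and Junb are in this list and in that of CREB targets. The number lower was 6 without isoproterenol 3, 7 without metoprolol 2 and 7 without metoprolol 3. The mean log2(FPKM + 1) of the list was 3.85 to 3.97 with isoproterenol, 4.2 to 4.54 with metoprolol and 3.84 to 4.00 in the controls.

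Atf3, a stress-induced repressor, was 3.78, 5.87 and 3.75 FPKM with isoproterenol and 11.6, 20.8 and 30.9 FPKM with metoprolol, a difference of -1.94 ± 0.31 (adjusted p = 0.0011). Fosl2, a partner in the AP-1 transcription factor, was lower by 1.26 ± 0.25, and Btg2, an antiproliferative gene, was lower by 0.84 ± 0.16 with isoproterenol (adjusted p = 0.0045 and 0.0039). Klf4 had the narrowest groups, 23.2 to 25.2 FPKM against 33.6 to 39.4 FPKM, and differed by -0.54 ± 0.07 (adjusted p = 0.00042). None of Atf3, Fosl2, Btg2, Klf4 and Maff lost its call in any alternative.

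A minority of the phosphodiesterase and Rgs genes were called, most of them lower with isoproterenol. Of 22 tested genes on this list, which also holds Rrad and Gem, 5 were lower with isoproterenol (Rgs2, Rgs16, Pde4b, Pde4d and Pde3b). In the same list 1 was higher (27.3% called in either direction, against 8.48% of all tested genes), and the median was -0.03. Rgs2, which ends signals of G-protein-coupled receptors and is itself induced by cyclic AMP, was 12.5, 13.2 and 14.2 FPKM with isoproterenol and 22.1, 24.4 and 20.5 FPKM with metoprolol. The groups of Rgs2 did not overlap, and they differed by -0.71 ± 0.09 (adjusted p = 0.00026). The number lower was 3 without isoproterenol 3 or without metoprolol 1. Pde4b, a cyclic AMP phosphodiesterase, was lower by 0.47 ± 0.08 with isoproterenol (adjusted p = 0.0021). Pde4a, of the same family, was the one gene called higher, by 0.34 ± 0.07 (adjusted p = 0.0044). The call of Pde4a was lost in the fits of both groups alone and without the libraries with transcripts of other tissues (adjusted p = 0.055 to 0.058).

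Proliferation genes were lower with isoproterenol across nearly the whole list. Of 35 mitosis genes, all of which passed the filter, 31 were lower and 0 were higher (88.6% called, against 8.48% of all tested genes). In 31, every isoproterenol library was below every metoprolol library, where 17.2% of all tested genes had that order. The median difference of the list was -0.68. Both drug groups were below the controls, by a list median of 0.87 log2 units for isoproterenol and 0.26 for metoprolol, comparisons that share the control libraries. The mean log2(FPKM + 1) of the 35 genes was 2.78, 2.86 and 2.40 with isoproterenol, 3.34, 3.43 and 3.17 with metoprolol and 3.51 to 3.65 in the controls. Isoproterenol 3 was the lowest library, and without it 22 mitosis genes were still called lower, with a median of -0.51. In bulk tissue, fewer cells of a type and less RNA per cell cannot be told apart.

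Ube2c, which tags mitotic cyclins for destruction, was 26.5, 24.9 and 18.5 FPKM with isoproterenol and 45.1, 50.2 and 35.6 FPKM with metoprolol, a difference of -0.88 ± 0.13 (adjusted p = 0.00086), with 63.5 FPKM in the controls. Ccnb1, the cyclin that drives entry into mitosis, was 5.82, 5.45 and 4.51 FPKM against 11.97, 11.2 and 9.88 FPKM, a difference of -0.94 ± 0.12 (adjusted p = 0.00026). In both genes the controls were highest, metoprolol lay between and isoproterenol was lowest. Spc25, a kinetochore subunit, had the largest difference of the list, -1.002 ± 0.15. Top2a, which untangles chromosomes, differed by -0.84 ± 0.14, and the proliferation marker Mki67 by -0.73 ± 0.14 (adjusted p = 0.0014 and 0.0032).

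The promoters of Ube2c and of Cdk1, the kinase that Ccnb1 activates, are shown for the pair of short motifs known from cell cycle promoters, the CCAAT box, bound by NF-Y, and the cell cycle homology region TTTGAA, read by the DREAM and MuvB complexes. Capitals mark either motif on either strand (ATTGG and TTCAAA are the reverse forms) in the last 100 bases before the start. The stretches are chr2:164769829-164769928 (plus strand) and chr10:69352913-69353012 (minus strand) of GRCm38.p6, from RefSeq.
Ube2c: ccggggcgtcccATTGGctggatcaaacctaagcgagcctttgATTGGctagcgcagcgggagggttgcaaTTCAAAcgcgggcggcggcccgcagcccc
Cdk1: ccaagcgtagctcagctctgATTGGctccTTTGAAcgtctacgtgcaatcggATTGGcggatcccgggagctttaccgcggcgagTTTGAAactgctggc
Among 31 mitosis genes with a window, 24 held CCAAT (77.4%, against 43.1% of all tested genes with a window) and 23 held TTTGAA (74.2%, against 14%). TTTGAA was in 24.3% of the windows of genes called lower with isoproterenol and in 13.2% of those called higher. In the DNA replication list the share with TTTGAA was 4 of 27 (14.8%), near that of all genes. The values of Cdk1 were 6.65, 7.55 and 5.38 FPKM with isoproterenol and 10.6, 12.5 and 8.39 FPKM with metoprolol, a difference of -0.60 ± 0.12 (adjusted p = 0.0051). The call of Cdk1 was lost in the fit of both groups alone and without the 4 libraries with transcripts of other tissues (adjusted p = 0.055 to 0.059).

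DNA replication genes were lower by smaller amounts. Of 34 tested, 15 were lower with isoproterenol and 0 higher (44.1% called, against 8.48% of all tested genes). Their median was -0.32, and 33 had a difference below 0. The count was 6 without isoproterenol 3, 9 without metoprolol 1 and 6 without metoprolol 2. Rrm2, the ribonucleotide reductase subunit made in S phase, was 20.3, 16.9 and 16.4 FPKM with isoproterenol and 40.3, 41.3 and 26.9 FPKM with metoprolol, a difference of -0.96 ± 0.14 (adjusted p = 0.0008). Pcna, the sliding clamp of DNA polymerase, was lower by 0.48 ± 0.08 (adjusted p = 0.0020), and the S-phase transcription factor gene E2f1 by 0.51 ± 0.10 (adjusted p = 0.0034).

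**Figure D4:**
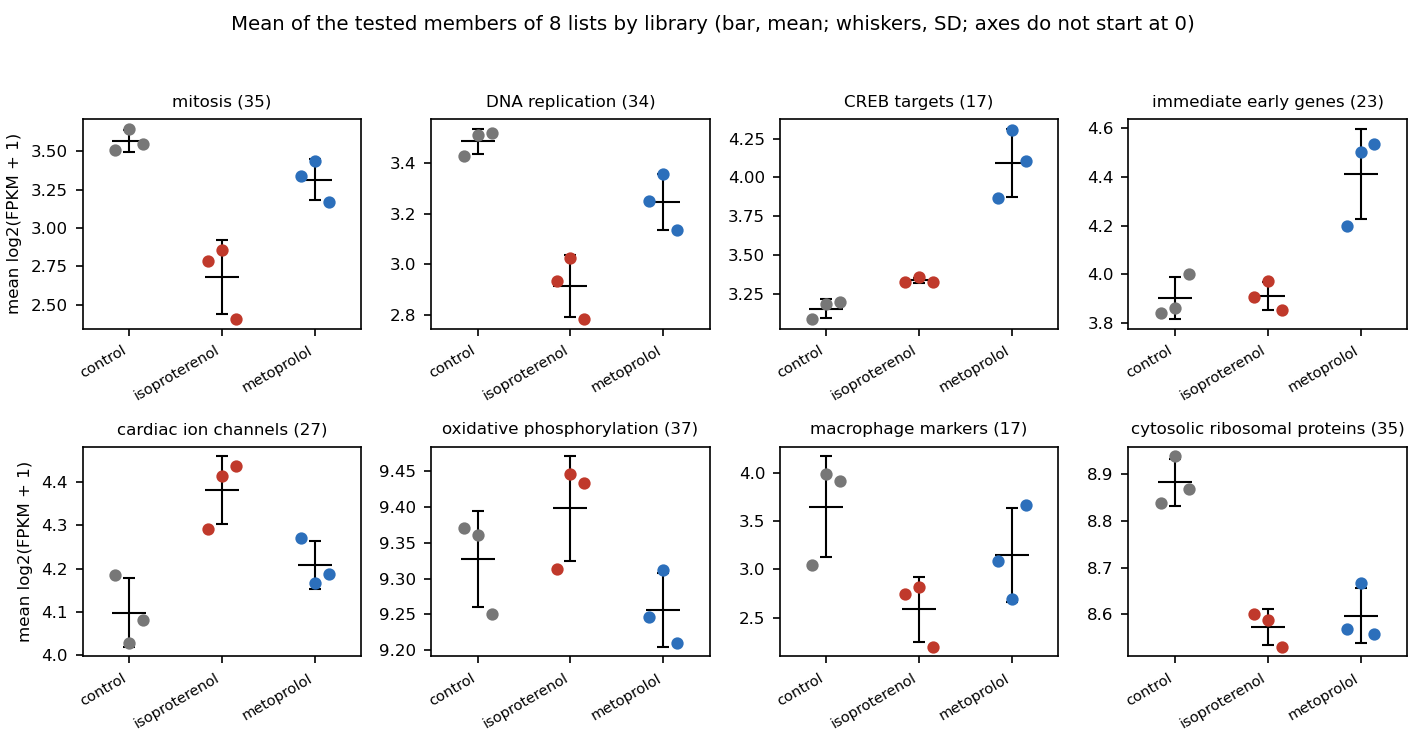
Mean log2(FPKM + 1) of the tested members of 8 gene lists in each control, isoproterenol and metoprolol library (1 point per library, black bar the mean, whiskers the SD, axes not from 0). The mitosis and replication means are lowest in all 3 isoproterenol libraries, and the CREB target and immediate early means are highest in all 3 metoprolol libraries.

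Of 20 tested cyclins and cell cycle brakes, 4 were lower with isoproterenol and 0 higher (20%, against 8.48% of all tested genes), with a median of -0.17. Cdkn1a, the p21 inhibitor of cyclin-dependent kinases and a target of p53, was 21.2, 16.6 and 16.9 FPKM with isoproterenol and 41.8, 45.2 and 41.98 FPKM with metoprolol. The gap was far wider than the spread within either group, -1.20 ± 0.10 (adjusted p = 4.2e-06). Metoprolol lay close to the control mean of 47.5 FPKM, at a difference of -0.14 with adjusted p = 0.30, and isoproterenol was 1.34 ± 0.10 below it on the log2 scale. Cdkn2c, which inhibits CDK4 and CDK6, was lower by 0.44 ± 0.09 with isoproterenol (adjusted p = 0.0043).

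Gadd45a, a stress gene that also restrains the cell cycle, went the other way, at 17.5, 15.4 and 16.5 FPKM with isoproterenol and 7.02, 6.76 and 6.70 FPKM with metoprolol. The difference was 1.16 ± 0.12 (adjusted p = 3.9e-05), and the control mean of 13.9 FPKM was nearer to isoproterenol. Of 18 tested p53 targets 2 were higher and 5 lower (38.9% called, against 8.48% of all tested genes). With calls on both sides and a median of -0.08, the list had no single direction. The number of p53 targets lower was 2 without isoproterenol 2 or without metoprolol 3, and 3 without isoproterenol 3 or without metoprolol 2.

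Clock genes differed in both directions. Of 20 tested, 8 were higher and 5 were lower with isoproterenol (65% called, against 8.48% of all tested genes). In 14 the groups did not overlap (10 higher and 4 lower, where 29.4% of all genes did not overlap). The numbers called higher and lower were 6 and 2 without isoproterenol 3, and 7 and 2 without metoprolol 3. Daytime and night-time genes of the clock are known to rise and fall in turn within a day.

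Dbp, a transcription factor that the clock drives in strong daily waves, was 72.5, 83.9 and 85.3 FPKM with isoproterenol and 23.1, 29.7 and 23.3 FPKM with metoprolol. The lowest isoproterenol library was above every library of the other 3 groups shown, with means of 33.0 FPKM in the controls and 22.9 FPKM with propranolol. The Dbp difference was 1.64 ± 0.15 (adjusted p = 1.3e-05). Its relative Tef differed by 0.86 ± 0.09, the repressor gene Per3 by 0.91 ± 0.11, Per2 by 0.69 ± 0.13 and Nr1d1, which encodes REV-ERBα, by 0.76 ± 0.15, all higher with isoproterenol (adjusted p = 5.4e-05, 0.00026, 0.0034 and 0.0040).

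Arntl, which encodes BMAL1, the activator at the centre of the clock that REV-ERB proteins repress, was 2.19, 1.00 and 0.66 FPKM with isoproterenol and 5.39, 3.52 and 4.70 FPKM with metoprolol. All isoproterenol libraries of Arntl were below the control mean of 3.87 FPKM, and the difference between the drugs was -1.32 ± 0.21 (adjusted p = 0.0012). Per1 differed from its relatives Per2 and Per3 in sign. It was 13.2, 15.4 and 18.1 FPKM with isoproterenol, 30.6, 34.2 and 30.8 FPKM with metoprolol, and had a mean of 9.74 FPKM in the controls. The Per1 difference was -0.997 ± 0.19 (adjusted p = 0.0039), and Per1 is also on the list of CREB targets. Against the controls Per1 was higher with both drugs, by 1.61 ± 0.19 with metoprolol and 0.62 ± 0.19 with isoproterenol (adjusted p = 4.5e-05 and 0.018).

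Per3 and Tef are shown as clock outputs whose promoters hold known clock motifs. Per3 holds the D-box TTATGTAA, read by Dbp, Tef and Hlf, at 2 places (chr4:151044806-151044885, minus strand), and Tef the E-box CACGTG, read by CLOCK and BMAL1 (chr15:81802523-81802562, plus strand, 1 of the 2 windows listed for Tef). Capitals mark the motif, and the build is again GRCm38.p6, from RefSeq.
Per3: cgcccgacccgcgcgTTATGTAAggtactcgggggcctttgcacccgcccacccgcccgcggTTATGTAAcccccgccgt
Tef: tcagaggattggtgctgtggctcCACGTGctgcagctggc
The D-box was in 0.648% of the windows of all tested genes and in 1 of 17 clock windows, that of Per3. The E-box was in 11.8% of all windows and in 5 of the 17 (29.4%).

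Heart muscle genes showed a few large differences and little shift of the whole. Of 30 tested sarcomere genes 3 were higher with isoproterenol and 0 lower, and the median was 0.04. The share called, 10%, was near the 8.48% of all tested genes. Acta1, the skeletal actin that fetal and overloaded ventricles express, was 218, 273 and 553 FPKM with isoproterenol and 121, 69.8 and 103 FPKM with metoprolol. The highest value was in isoproterenol 3, the library with atrial transcripts, but the other isoproterenol libraries were also above all metoprolol libraries. The Acta1 difference was 1.74 ± 0.42 (adjusted p = 0.016), and it was not called without isoproterenol 3 (1.34, adjusted p = 0.091) or without metoprolol 2 (1.51, adjusted p = 0.064). With isoproterenol 3 or metoprolol 2 left out, 1 sarcomere gene was called higher. How the counting treated reads shared by the closely alike actin genes is not given in the sources used here. Tcap, the titin cap at the Z-disc, was 386, 626 and 498 FPKM against 267, 315 and 267 FPKM, a difference of 0.81 ± 0.15 (adjusted p = 0.0031).

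Among stretch-responsive genes, Nppb and Acta1 moved apart. Nppb, which encodes B-type natriuretic peptide, was 118, 128 and 135 FPKM with isoproterenol and 283, 406 and 376 FPKM with metoprolol, a difference of -1.46 ± 0.33 (adjusted p = 0.011). Its mean was 301 FPKM in the controls and 503 FPKM with propranolol, so isoproterenol was the low group. Nppa, the atrial-type peptide gene, was 712 to 1012 FPKM with isoproterenol and 503 to 782 FPKM with metoprolol. The groups of Nppa overlapped, and the difference of 0.39 had an interval of -0.24 to 1.03. Ankrd23, a titin-associated stretch gene, was lower by 0.84 ± 0.13 (adjusted p = 0.0012), and Ctgf, a matricellular gene that stretch induces, by 1.03 ± 0.23 (adjusted p = 0.0091), a call lost without metoprolol 3 (adjusted p = 0.062). In all, 3 of 16 tested natriuretic and stretch genes were higher and 5 lower (50% called, against 8.48% of all tested genes). Without isoproterenol 3 these counts were 0 and 4, without metoprolol 2 they were 1 and 4, and without metoprolol 3 they were 1 and 2.

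Ion channel genes leaned to isoproterenol. Of 27 tested, 6 were higher and 1 lower (25.9% called, against 8.48% of all tested genes). The median was 0.16, and 13 were higher without overlap (12.2% of all genes were). The number higher was 3 without isoproterenol 3, 3 without metoprolol 2 and 1 without metoprolol 3. Cacna1h, a T-type calcium channel of the fetal heart, was 10.97, 11.2 and 13.1 FPKM with isoproterenol and 7.77, 6.44 and 5.41 FPKM with metoprolol, a difference of 0.77 ± 0.14 (adjusted p = 0.0028). Kcnj2, the channel that sets the resting potential, was higher by 0.56 ± 0.12 (adjusted p = 0.010), a call lost without metoprolol 3 (adjusted p = 0.068). Of 22 calcium handling genes 2 were lower and 0 higher, with a median of -0.15. The share called, 9.09%, was near the 8.48% of all tested genes. In 10 of the 22 all isoproterenol libraries were below all metoprolol libraries, where 17.2% of all tested genes had that order. The number called lower was 0 without isoproterenol 2 or without metoprolol 3.

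Acta2, the smooth muscle actin also made by immature heart muscle and myofibroblasts, was 174, 146 and 199 FPKM with isoproterenol and 342, 298 and 361 FPKM with metoprolol, a difference of -0.95 ± 0.13 (adjusted p = 0.00036). The other smooth muscle and pericyte markers did not follow it: of 14 tested, 1 was lower (Acta2) and 1 higher (Cnn1), and the median was 0.05. The call of Cnn1 was lost in 6 alternatives, among them without isoproterenol 3, metoprolol 1 or metoprolol 2 (adjusted p = 0.054 to 0.14 over the 6). Thbs1, a matricellular glycoprotein, was lower by 1.27 ± 0.30 (adjusted p = 0.013), a call lost without metoprolol 3 (adjusted p = 0.081), and it was the only one of 30 matrix genes called.

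Energy genes that were called were mostly higher with isoproterenol. The share called in either direction was 8.11% in oxidative phosphorylation, 17.9% in fatty acid oxidation and 22.6% in sugar metabolism, where it was 8.48% of all tested genes. Of 37 tested oxidative phosphorylation genes 3 were called higher and 0 lower, but 36 had a difference above 0 and 21 were higher without overlap (12.2% of all tested genes were), with a median of 0.13. The number called higher was 8 with the length and GC correction and 2 with rescaling. Their mean log2(FPKM + 1) was 9.31, 9.45 and 9.43 with isoproterenol and 9.25, 9.31 and 9.21 with metoprolol, with controls at 9.25 to 9.37, so the groups of means touched at their ends. Fatty acid oxidation had 4 of 28 genes higher and 1 lower, and a median of 0.12. Sugar metabolism had 6 of 31 higher and 1 lower, and a median of 0.05. The number higher depended on single libraries. Without isoproterenol 2, isoproterenol 3, metoprolol 1 or metoprolol 3, none of the oxidative phosphorylation genes was called, and the count of higher genes in fatty acid oxidation was then 0, 1, 0 and 1. It was 2 without metoprolol 2. In sugar metabolism it was 4 without isoproterenol 2, 3 without isoproterenol 3 and 2 without metoprolol 3.

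Eno3, the muscle enolase of glycolysis, was 1175, 1295 and 1269 FPKM with isoproterenol and 833, 882 and 773 FPKM with metoprolol, a difference of 0.59 ± 0.08 (adjusted p = 0.00026). The gene lower in the sugar list was Stbd1, which anchors glycogen to membranes, at 7.65, 7.70 and 9.16 FPKM against 14.7, 15.8 and 17.4 FPKM (-0.89 ± 0.12, adjusted p = 0.00032). For Stbd1 the control mean of 8.37 FPKM was at the level of isoproterenol, and for Eno3 the control mean of 859 FPKM was at that of metoprolol. Pdk2, a kinase that slows glucose oxidation, was higher by 0.35 ± 0.07 (adjusted p = 0.0043).

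Pik3ip1, which restrains PI3-kinase, was 39.5, 26.2 and 29.2 FPKM with isoproterenol and 13.7, 14.5 and 11.2 FPKM with metoprolol, a difference of 1.19 ± 0.18 (adjusted p = 0.00084). Slc9a3, an exchanger better known from kidney and gut, was 2.65, 1.58 and 2.30 FPKM against 0.40, 0.58 and 0.28 FPKM, with 0.36 FPKM in the controls. It differed by 1.15 ± 0.11 (adjusted p = 2e-05), and its level was low throughout. Msrb1, a selenoprotein that repairs oxidised methionine, was higher by 0.98 ± 0.13, and Rpl3l, the muscle form of a ribosomal protein, by 0.94 ± 0.16 (adjusted p = 0.00036 and 0.0021). The cytosolic ribosomal proteins themselves had 0 of 35 calls and a median of -0.03.

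**Figure D5:**
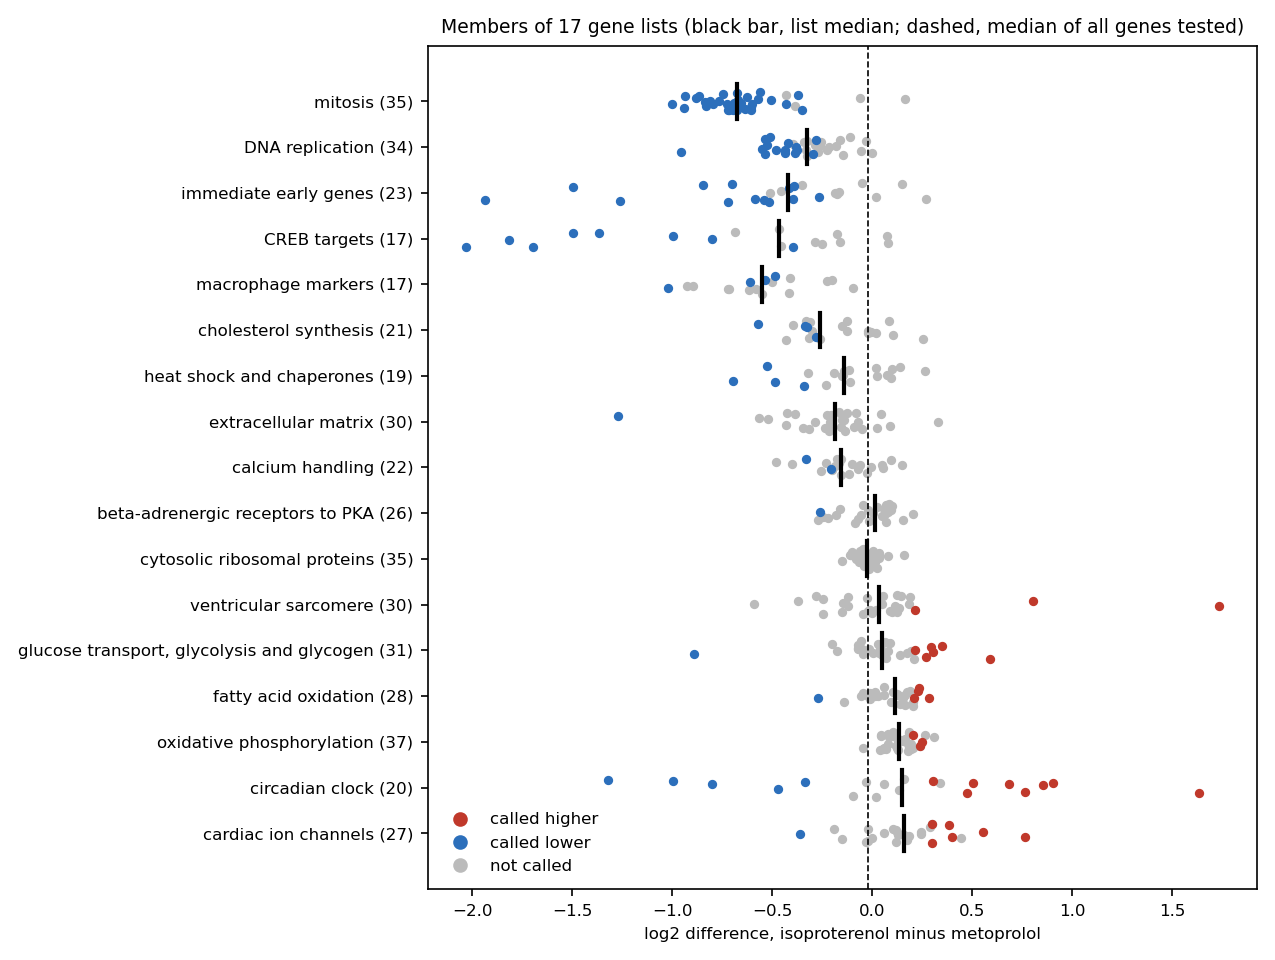
Log2 difference, isoproterenol minus metoprolol (horizontal axis), of every tested member of 17 gene lists (rows, with the number tested), coloured by call; black bars are list medians and the dashed line is the median of all genes tested. Mitosis members lie almost wholly below 0 (median -0.68), clock members spread to both sides, and ribosomal protein genes lie close to 0.

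Stress and sterol genes had a minority of calls, all but 1 of them lower with isoproterenol. Among 19 heat shock and chaperone genes 4 were lower, among 18 genes of the integrated stress response 4 were lower and 1 higher, and among 21 genes of cholesterol synthesis 4 were lower. The shares called were, in that order, 21.1%, 27.8% and 19%, against 8.48% of all tested genes. Rescaling added 1 cholesterol gene as higher. The numbers lower in these 3 lists, in that order, were 1, 2 and 1 without isoproterenol 3, and 2, 3 and 0 without metoprolol 3. The chaperone count was also 1 without isoproterenol 2 and 2 without metoprolol 1, and the stress response count 2 without metoprolol 2. Hsp90aa1, the inducible cytosolic chaperone, was 42.8, 38.9 and 35.4 FPKM with isoproterenol and 51.3, 56.9 and 61.4 FPKM with metoprolol (-0.52 ± 0.09, adjusted p = 0.0026). Atf4, the transcription factor of the integrated stress response, was lower by 0.39 ± 0.07, and Slc7a1, an arginine transporter that it can induce, by 0.54 ± 0.09 (adjusted p = 0.0015 and 0.0020).

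Macrophage markers were lower with isoproterenol in the median, by 0.55, and all 17 tested had a difference below 0. Of them 4 were called (Csf1r, Cx3cr1, Folr2 and Cd14), or 23.5%, against 8.48% of all tested genes. The call of Folr2 was lost in 11 of 19 alternatives (adjusted p up to 0.17), that of Cd14 in 5 and that of Cx3cr1 in 2. Without isoproterenol 3 or without metoprolol 3, 1 marker was called. Csf1r, the receptor that macrophages need to survive, was 10.01, 9.27 and 7.62 FPKM with isoproterenol and 13.6, 12.8 and 16.3 FPKM with metoprolol, with a control mean of 19.7 FPKM. Its difference was -0.61 ± 0.13 (adjusted p = 0.0077), a call lost without isoproterenol 3 or without metoprolol 3 (adjusted p = 0.051 in each). Lyz2, which myeloid cells express strongly, ran from 26.6 to 102 FPKM with isoproterenol and from 53.3 to 269 FPKM with metoprolol, with overlap and no call (-0.90, interval -2.15 to 0.36). The summed level of the macrophage list was 107 to 230 FPKM with isoproterenol and 177 to 522 FPKM with metoprolol. Isoproterenol 3 and metoprolol 3 were the extremes, the same libraries whose removal cost the most calls over all genes. The part of this difference in the other results was not tested.

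Markers of most other cell types had few or no calls. Of 20 endothelial markers 1 was called lower, of 14 fibroblast markers 1 and of 12 epicardial markers 1, with none called higher, and their medians were 0.0049, -0.15 and -0.03. The shares called were 5%, 7.14% and 8.33%, against 8.48% of all tested genes. Each of the calls in these lists was lost in several of the fits with 1 library left out. Of 14 cardiomyocyte markers 2 were higher and 0 lower (14.3% called, against 8.48% of all tested genes), with a median of 0.12. Of 6 tested conduction system markers 2 were higher and 0 lower (33.3%), with a median of 0.39. Interferon response, MHC class I, and complement genes had no calls among 15, 13 and 17 tested, with medians of -0.06, -0.18 and -0.40. Of 6 tested neutrophil markers none was called, with a median of -0.93 and summed levels of 9.33 to 13.01 FPKM with isoproterenol and 22.5 to 33.3 FPKM with metoprolol, which did not overlap. That median was farther from 0 than the median of the macrophage markers.

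Metoprolol and propranolol, the blockers, were hard to tell apart at this number of libraries. Of the 11986 genes 7, or 0.0584%, were called between them, with 1287 at an unadjusted p below 0.05, and 1810 (15.1%) were called between isoproterenol and propranolol. Y-linked transcripts were present in 3 propranolol libraries (Ddx3y at 7.17 to 8.82 FPKM), 1 metoprolol library and 0 isoproterenol libraries. Between isoproterenol and propranolol, drug and presence of Y-linked transcripts therefore cannot be told apart, and between the blockers they overlap in part. Rrad, a small GTPase that inhibits calcium channels, Dusp1 and Hand2, a heart transcription factor, were higher with metoprolol than with propranolol, by 0.75, 0.56 and 0.59 log2 units. The remaining 4 were lower with metoprolol. The number was 0 to 2 when a metoprolol library was left out. Nr4a1 was 2.03 ± 0.43 higher with metoprolol than with propranolol without passing the threshold (adjusted p = 0.089), and the like difference for Irs2 was 1.18 ± 0.36 (adjusted p = 0.25) and for Sik1 1.08 ± 0.23 (adjusted p = 0.089).

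For several genes the propranolol libraries lay on the side of metoprolol. Isoproterenol was lower than propranolol by 0.83 ± 0.13 for Ube2c and by 1.02 ± 0.10 for Cdkn1a, and higher by 1.77 ± 0.15 for Dbp (adjusted p = 0.00056, 1.5e-05 and 7.1e-06), in a comparison that shares the isoproterenol libraries. CREB targets varied in this. Isoproterenol minus propranolol was -0.01 ± 0.43 for Nr4a1, -0.03 ± 0.38 for Fos, -0.29 ± 0.23 for Sik1, -0.53 ± 0.35 for Nr4a3 and -0.64 ± 0.36 for Irs2, none of them called (adjusted p = 1, 0.97, 0.44, 0.34 and 0.25). Per1 was lower with isoproterenol by 0.74 ± 0.19 (adjusted p = 0.014). The doses of both blockers are not given, so these values are not a comparison at matched dose. The isoproterenol and propranolol libraries also differed throughout in the presence of Y-linked transcripts.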

How the data were processed

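RNA from the heart apex was sequenced on a BGISEQ-500, per the labels' protocols, after oligo dT selection or rRNA depletion (which of them is not given). The authors deposited 1 table of FPKM values. The tools listed in the submitters' processing notes are HISAT and Bowtie2 2.2.5, on build mm9. The counter, annotation and filters are not given in the sources used here. FPKM hold no counts, so depth is unknown and no count model was used.

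A gene was tested where 3 or more of the 6 isoproterenol and metoprolol libraries reached 1 FPKM. The limma 3.58.1 model (R 4.3.3) estimated the 7 group means of log2(FPKM + 1) from all 21 libraries, which leaves 14 residual degrees of freedom. Variances were moderated by empirical Bayes along a trend with the mean. All adjusted p-values come from it, by the Benjamini-Hochberg method over all tested genes within a comparison. A gene is called below 0.05, errors are SE unless stated, and intervals are 95%. No p-value was adjusted over a list.

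Genes named are a part of those given by a rule: the 15 largest called differences each way without overlap, up to 5 called members of smallest p of each list, all receptor pathway and CREB genes, and markers of other tissues. Values of other genes named for contrast, and the examples given among those the rule allows, were chosen with values in view. The comparison, its lists and the tests were chosen with earlier results of these data known. Length and GC content came from reference transcripts matched to 97.1% of the genes. Alternatives are listed in the closing section.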

Additional observations from a re-analysis of the deposited data

How the results depend on the processing

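The counts of genes called between isoproterenol and metoprolol were within 1.5 times of 1017 (366 higher and 651 lower) with a pseudocount of 0.1, without a filter, with filters at 5 FPKM or over all 21 libraries, with rescaling, without a variance trend, with robust moderation, with a Y-linked term and with the length and GC correction. They were smaller in a fit of both groups alone (528, 194 and 334), and without the 4 libraries with transcripts of other tissues, isoproterenol 3 among them, left out after seeing the data (318, 121 and 197). A like count did not mean the same genes. Those among the 1017 were 667 of 904 with the length and GC correction, 896 of 1018 with rescaling and 806 of 851 with the Y-linked term. Leaving out 1 of the 6 libraries at a time gave 425 to 874 genes, 133 to 301 higher and 265 to 573 lower. Same-numbered libraries of the drugs had residual correlations of -0.18 to -0.06, and 0 of 6 correlated best with its own number. They share only a number, so the replicate block is given here alone. With it, 929 genes were called with all libraries, and 297 (86 higher and 211 lower) in both groups alone. The 7 calls between metoprolol and propranolol became 0 without a filter and without the 4 libraries, 2 with the Y-linked term, 4 with the length and GC correction, and 0 to 7 when 1 library was left out. Adrb1, not called in any setting, changed sign with rescaling (0.00089), without the 4 libraries (0.024) and over single libraries left out (-0.088 to 0.063). The cause was not tested in any of these cases.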
